A study of Mus musculus with 30 samples.

Results

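CD8+ T cells were compared with CD4+ T cells taken from the same kind of control tumour. The comparison covers 10 of the 30 libraries of the series, the 5 labelled CD8 CTRL (libraries 21 to 25) and the 5 labelled CD4 CTRL (libraries 11 to 15), chosen by their labels and not by any measured value. All 10 came from wild-type mice bearing tumours of 4T1-GFP, a mouse mammary carcinoma line that carries green fluorescent protein, and the mice received a control IgG1 antibody 2 times a week for 1 month. T cells were pulled from the tumours with magnetic beads, without a stated second sort, and the labels give neither strain nor age. The remaining libraries hold sorted 4T1 cells and the same populations after C269, an antibody that neutralises extracellular nicotinamide phosphoribosyltransferase (NAMPT), at 2.5 mg/kg, and the series title asks how that treatment affects T cell responses and the PD-1/PD-L1 axis. Whether the 5 libraries of a group stem from 5 different mice is not stated in the labels, and a p-value here refers to the spread among libraries, which may be technical.

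CD4+ and CD8+ T cells arise from a common thymic precursor and part ways under opposing transcription factors, Zbtb7b (ThPOK) for the CD4 lineage and Runx3 for the CD8 lineage. CD8+ T cells recognise peptides on MHC class I and kill target cells with granzymes and perforin, and T-bet and Eomes drive much of that program. CD4+ T cells recognise MHC class II and divide into helper subsets and Foxp3+ regulatory T cells (Tregs), which often accumulate in tumours and restrain the CD8+ response.

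Gene levels are given as CPM, each count scaled to the library's gene-assigned total, and 12109 genes with enough counts were tested with edgeR's quasi-likelihood test, adjusted by Benjamini-Hochberg over all of them. Total counts ran from 4009264 to 4492193 in CD4 CTRL and from 2691619 to 4036860 in CD8 CTRL. The first principal component held 47.2% of the variance and separated the groups, with CD4 CTRL libraries at -74.6 to -34.5 and CD8 CTRL libraries at 27.4 to 73.8. CD4 library 14 stood apart from its group: its summed level of 11 genes that all T cells share (among them Cd3d, Cd3e, Cd3g, Cd247, Cd2, Cd5, Lck, Zap70, Lat and Thy1) was 1243 CPM, against 2658 to 2856 CPM in the other CD4 CTRL libraries. In CD8 CTRL the same sum was 3461 to 4343 CPM, above every CD4 library, with a ratio of group means of 1.6, or 1.43 without library 14. Epithelial markers summed to 282 to 466 CPM in CD4 CTRL but only 51.8 to 167 CPM in CD8 CTRL, without overlap. The 4T1 CTRL libraries, quoted as a reference below, held 414.9 to 925.9 CPM of epithelial markers but also more neutrophil marker RNA than any of the 10 T cell libraries, so their levels, quoted as means of 5 libraries, are not those of tumour cells alone. The CD4 libraries thus held less shared T cell RNA and more epithelial RNA, and in bulk RNA fewer cells of a type and less RNA per cell cannot be told apart. Isolation, table and lineage coincide in this design, so any batch of isolation and the lineage cannot be told apart.

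**Figure D1:**
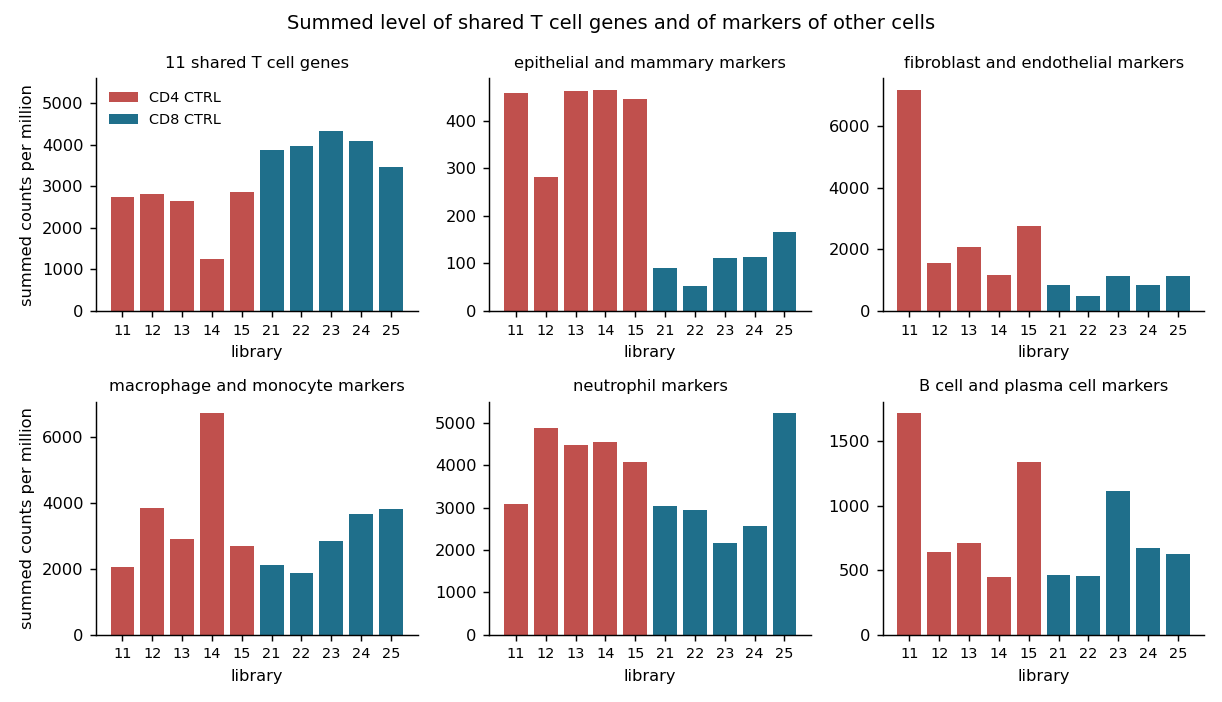
Summed CPM (y axis, linear) in each of the 10 libraries (x axis, library number) for 11 shared T cell genes and 5 marker lists of other cells. Shared T cell genes were lowest in CD4 library 14 (1243 CPM), epithelial markers were higher in every CD4 library, and macrophage markers were highest in library 14 (6738 CPM).

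At an adjusted p under 0.05, 1219 genes were higher in CD8 CTRL (10.1% of the genes tested) and 1604 were lower (13.2%). The median log2 fold change over all tested genes was 0.02. List counts below on the CPM scale are to be read beside 10.1% higher and 13.2% lower. In 2182 of the 12109 tested genes the groups did not overlap. When each library was instead scaled to its 11 shared T cell genes, the median of all genes moved to -0.89, and the split of calls changed from 43.2% higher to 2.16% higher: 128 of the 12109 genes were then higher (1.06%) and 5803 lower (47.9%). Without library 14 the same scaling gave 2.18% of genes higher and 43.9% lower, and a median of -0.54. All 128 genes higher under the T cell scaling were among the 1219, and all 1604 genes lower on the CPM scale stayed lower. A CPM value therefore describes a share of the RNA of the isolate, and the value scaled to T cell RNA is given beside a higher call of a named gene that this scaling ended. Of 143 named genes tested, 18 kept their direction but lost the call under it and 8 changed direction, and without library 14 these were 12 and 4. Genes that did not pass on the CPM scale were often lower on this scale, as were 47.9% of all genes. List counts on this scale are to be read beside that share and the 1.06% higher.

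**Figure D2:**
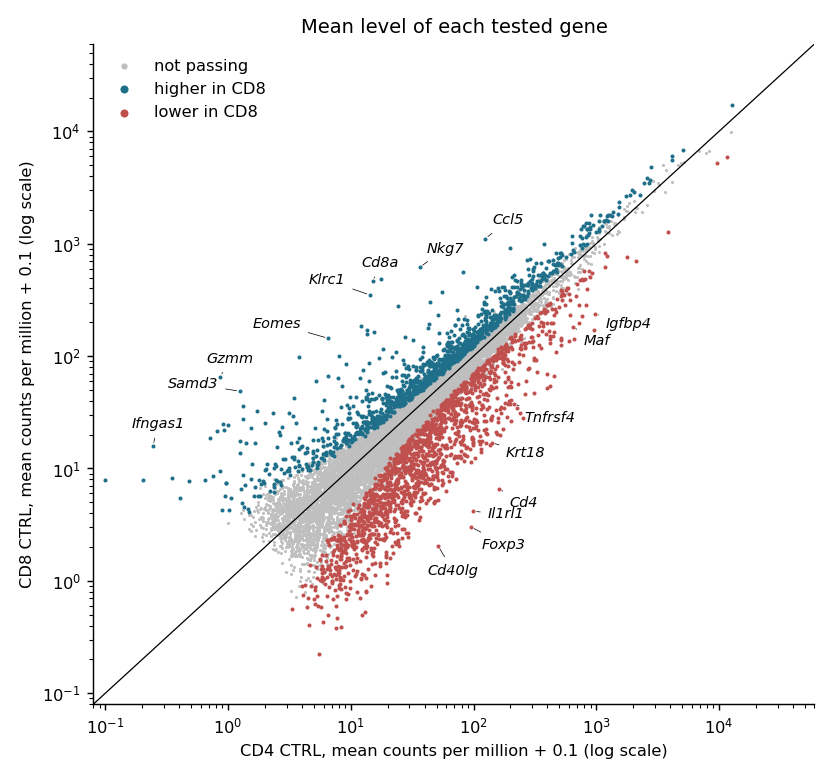
Mean CPM plus 0.1 of each of the 12109 tested genes in CD4 CTRL (x axis, log scale) and CD8 CTRL (y axis, log scale), with genes passing the test coloured and the line of equal level drawn. Cd8a, Gzmm, Klrc1, Nkg7 and Eomes lie far above the line, and Cd4, Foxp3, Il1rl1 and Cd40lg lie far below it.

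The coreceptors matched the labels in every library. Cd8a (chr6:71373427-71379173), the alpha chain of the MHC class I coreceptor, stood at 6.88, 16.9, 13.3, 18 and 19.7 CPM in CD4 CTRL libraries 11 to 15. In CD8 CTRL libraries 21 to 25 it stood at 445, 357, 494, 619 and 395 CPM. The groups lay far apart, with a log2 fold change of CD8 CTRL over CD4 CTRL of 5.03 ± 0.24 (edgeR adjusted p = 2.88e-09), where the value after each log2 fold change is its standard error. Cd8b1 (chr6:71322788-71337494), the beta chain, stood at 15, 25.7, 16.2, 10 and 20.4 CPM in the CD4 libraries and 412, 418, 576, 565 and 437 CPM in the CD8 libraries. The groups again did not overlap, and the log2 fold change was 4.85 ± 0.23 (edgeR adjusted p = 2.88e-09).

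Cd4 (chr6:124864692-124888221), the MHC class II coreceptor, stood at 182, 192, 184, 71.3 and 172 CPM in the CD4 libraries and at 10.2, 3.11, 3.89, 3.08 and 12.2 CPM in the CD8 libraries. Library 14 was the low one of the CD4 group, yet still above every CD8 library, and the log2 fold change was -4.54 ± 0.39 (edgeR adjusted p = 1.39e-06). The mean level of the other lineage's marker was 3.24% of the own-lineage mean for Cd8a, 3.63% for Cd8b1, 4.05% for Cd4 and 3.07% for Foxp3. Each isolate thus held a few percent of the other lineage's marker RNA.

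Of 18 coreceptor and lineage factor genes, 6 were higher in CD8 CTRL and 5 lower, with a median log2 fold change of 0.64 that turned to -0.08 when scaled to T cell RNA. Zbtb7b (chr3:89377644-89394776), the factor that commits thymocytes to the CD4 lineage, was at 28.8, 36.1, 33.5, 42.3 and 20.4 CPM in the CD4 libraries and 7.93, 6.79, 10.2, 15.8 and 9.3 CPM in the CD8 libraries. It was lower in every CD8 library, with a log2 fold change of -1.62 ± 0.26 (edgeR adjusted p = 0.000348). The 4T1 CTRL libraries held a mean of 16.6 CPM of it. Runx3 (chr4:135120652-135177990), its counterpart in the CD8 lineage, was at 282, 363, 323, 242 and 342 CPM in the CD4 libraries and 637, 628, 533, 638 and 648 CPM in the CD8 libraries.

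Runx3 was higher in every CD8 library, with a log2 fold change of 1.07 ± 0.14 (edgeR adjusted p = 5.25e-05). Scaled to T cell RNA its difference was 0.24 and no longer passed (adjusted p = 0.373). Without library 14 that scaled difference was 0.41 and passed (adjusted p = 0.0172). Both lineage factors thus separated the groups completely while showing smaller log2 differences than the coreceptor genes.

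The T-box factors, which drive the effector program, also differed. Eomes (chr9:118478212-118486132) stood at 12.7, 3.61, 4.45, 1.5 and 10.1 CPM in the CD4 libraries and at 126, 122, 177, 119 and 175 CPM in the CD8 libraries. Its groups lay far apart, with a log2 fold change of 4.56 ± 0.38 (edgeR adjusted p = 9.73e-07) that was 3.86 scaled to T cell RNA. Tbx21, which encodes T-bet, was at 7.38 to 17 CPM in the CD4 libraries and 58 to 98.1 CPM in the CD8 libraries, a log2 fold change of 2.67 ± 0.23 (edgeR adjusted p = 1.44e-06). Gata3, the factor of type 2 helper cells that also supports CD4 commitment, was lower in CD8 CTRL, with a log2 fold change of -1.05 ± 0.15 (edgeR adjusted p = 0.000101).

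**Figure D3:**
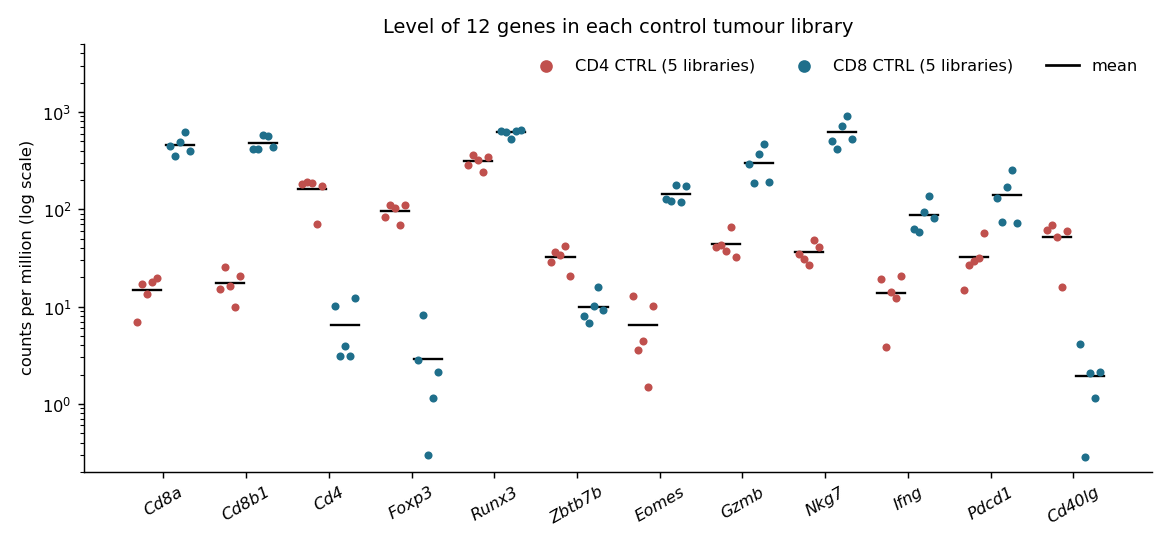
CPM (y axis, log scale) of 12 genes in each of 5 CD4 CTRL and 5 CD8 CTRL libraries, with points for libraries and bars for group means. For all 12 genes the 5 points of one group lie clear of the 5 points of the other. This was also so in 2182 of the 12109 tested genes. No overlap was a condition of the naming rule for the largest changes, which Cd8a, Cd8b1, Cd4, Foxp3 and Cd40lg met.

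Granule genes were higher in CD8 CTRL as a group. Of 20 cytotoxic granule genes, 17 were higher in CD8 CTRL and 0 lower, against 10.1% and 13.2% of all tested genes, with a median log2 fold change of 3.04. Under the T cell scaling 13 stayed higher and 1 was lower, against 1.06% and 47.9% of all tested genes, and the median was 2.0. Without library 14 as well 17 were higher and 2 lower. The 3 members that did not pass were Srgn, which encodes the granule proteoglycan serglycin, and Unc13d and Rab27a, which act in granule release.

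Promoters of 6 genes higher in CD8 CTRL are printed, those of 4 granule genes, the chemokine Xcl1 and the killer lectin receptor Klrc1. They were picked because they hold the RUNX motif, so its recurrence in them follows from the choice. Each is the 250 bases before the transcript start, 5′ to 3′ on the gene's strand, from RefSeq (GRCm38.p6). The motifs were searched separately. Capitals mark the RUNX motif TGTGGT or its reverse complement ACCACA, and the T-box half-site GTGTGA or its reverse complement TCACAC.
Gzma: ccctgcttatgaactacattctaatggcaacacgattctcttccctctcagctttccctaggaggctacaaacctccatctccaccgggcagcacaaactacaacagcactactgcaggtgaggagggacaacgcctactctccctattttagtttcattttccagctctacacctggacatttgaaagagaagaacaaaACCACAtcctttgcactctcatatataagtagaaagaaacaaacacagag
Gzmb: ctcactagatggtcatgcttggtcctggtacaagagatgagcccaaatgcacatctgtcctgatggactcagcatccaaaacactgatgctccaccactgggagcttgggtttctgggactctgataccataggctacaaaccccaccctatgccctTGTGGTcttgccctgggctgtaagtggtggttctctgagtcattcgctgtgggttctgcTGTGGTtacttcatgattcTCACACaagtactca
Gzmm: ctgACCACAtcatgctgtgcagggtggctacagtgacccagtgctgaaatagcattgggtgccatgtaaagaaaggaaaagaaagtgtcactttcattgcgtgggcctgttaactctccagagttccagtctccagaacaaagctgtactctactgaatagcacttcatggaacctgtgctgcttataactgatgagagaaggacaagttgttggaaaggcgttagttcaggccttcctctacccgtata
Prf1: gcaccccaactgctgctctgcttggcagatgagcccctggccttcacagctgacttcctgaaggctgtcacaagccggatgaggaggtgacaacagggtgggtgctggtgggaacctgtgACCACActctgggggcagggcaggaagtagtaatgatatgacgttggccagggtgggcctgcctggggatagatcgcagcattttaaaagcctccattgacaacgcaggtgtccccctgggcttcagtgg
Xcl1: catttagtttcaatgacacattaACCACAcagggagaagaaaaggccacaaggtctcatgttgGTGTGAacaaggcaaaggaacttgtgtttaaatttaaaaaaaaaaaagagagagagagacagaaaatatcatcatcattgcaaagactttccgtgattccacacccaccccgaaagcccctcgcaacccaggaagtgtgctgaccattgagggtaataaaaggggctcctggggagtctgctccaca
Klrc1: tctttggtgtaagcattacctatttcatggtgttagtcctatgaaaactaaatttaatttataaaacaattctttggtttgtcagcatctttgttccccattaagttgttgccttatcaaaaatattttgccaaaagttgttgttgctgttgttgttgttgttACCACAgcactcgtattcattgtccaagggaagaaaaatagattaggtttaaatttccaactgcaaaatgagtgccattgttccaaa
The windows lie at chr13:113100982-113101231 (minus strand), chr14:56262335-56262584 (minus), chr10:79688770-79689019 (plus), chr10:61297586-61297835 (plus), chr1:164935523-164935772 (minus) and chr6:129678974-129679223 (minus). Gzmm has a second annotated start, whose window holds 0 RUNX motifs. Among other genes higher in CD8 CTRL, the windows of Cd8a, Ifng, Eomes, Tbx21, Pdcd1 and Samd3 held 0 RUNX motifs, while those of Nkg7 and Cxcr6 held 1. Among genes lower in CD8 CTRL, Foxp3, Gata3 and Tnfrsf4 held 0. Zbtb7b and Il1rl1, also lower, held 0 at their first annotated start and 1 at their second.

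The RUNX letters, searched on both strands, occurred in 14% of all 32851 promoter windows of this length, and in the windows of 13.1% of 9046 tested genes with an entry. Among the cytotoxic granule genes 12 of 18 with an entry held them (66.7%), 8 of 9 among the granzymes. Gzmc, Gzmd, Gzme and Gzmf arose as neighbouring copies and each held the letters 2 times, so these are not independent matches. Of 14 killer lectin and NK receptor genes 7 held the letters (50.0%), and of 19 Treg genes 3 did (15.8%). Over all genes the shares lay close together, at 15.2% of 925 genes higher in CD8 CTRL and 12.4% of 1238 genes lower. The T-box letters occurred in 12.3% of all windows and in 5 of the 18 granule genes (27.8%). A match of these letters is a description of the sequence, not evidence of binding.

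Gzmb (chr14:56258838-56262260), the main apoptosis-inducing granzyme, stood at 40.7, 43.3, 37.2, 66 and 32.3 CPM in the CD4 libraries and 289, 186, 369.5, 473 and 193 CPM in the CD8 libraries. Library 14 was the highest of the CD4 group, still below the lowest CD8 library, and the log2 fold change was 2.87 ± 0.25 (edgeR adjusted p = 1.44e-06). Gzma, a granzyme that cleaves after basic residues, stood at 12.2, 1.35, 6.09, 11.2 and 8.58 CPM in the CD4 libraries and 23.5, 69, 126, 129 and 154 CPM in the CD8 libraries. Its CD8 values spread more widely, with library 21 lowest, and the log2 fold change was 3.76 ± 0.48 (edgeR adjusted p = 4.02e-05).

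Gzmm (chr10:79689020-79695261), a granzyme that cleaves after methionine and leucine, stood at 0.509, 1.8, 0, 0.50 and 1.01 CPM in the CD4 libraries and 52.2, 38.2, 97.6, 51.5 and 86.2 CPM in the CD8 libraries. Near absence from the CD4 libraries gave it the largest log2 fold change of the list, 6.42 ± 0.45 (edgeR adjusted p = 1.67e-07). Prf1, the pore-forming perforin, stood at 13.8, 16.5, 6.56, 7.25 and 23.5 CPM in the CD4 libraries and 141, 92.2, 169.8, 301 and 89.4 CPM in the CD8 libraries. Library 24 was the highest for both Gzmb and Prf1, and the log2 fold change of Prf1 was 3.62 ± 0.37 (edgeR adjusted p = 5.96e-06).

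Nkg7 (chr7:43437073-43438249), a granule membrane protein needed for efficient degranulation, stood at 34.9, 30.5, 26.5, 48.8 and 40.9 CPM in the CD4 libraries and 502, 420.4, 723, 909 and 534 CPM in the CD8 libraries. No CD8 library came near the CD4 range, and the log2 fold change was 4.17 ± 0.22 (edgeR adjusted p = 4.93e-09). Ctsw, the lymphocyte cathepsin W, ran from 15 to 34.1 CPM in CD4 CTRL against 259.7 to 326 CPM in the CD8 libraries, a log2 fold change of 3.6 ± 0.20. Lyst, a regulator of lysosome size, differed less, by 1.45 ± 0.16, and did not pass when scaled to T cell RNA (0.55, adjusted p = 0.136) but did without library 14 (0.89, adjusted p = 0.000896). The neighbouring granzymes Gzmc, Gzmd, Gzme, Gzmf and Gzmg are near-identical copies on chromosome 14, so their counts are uncertain; Gzmf was at 0.234 to 11.1 CPM in the CD4 libraries and 46.9 to 197 CPM in the CD8 libraries.

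Killer lectin receptors, which NK cells use to read MHC class I and stress ligands and which effector CD8+ T cells also carry, followed the granule genes. Of 11 tested members of 18 listed, 10 were higher in CD8 CTRL and 1 lower, with a median log2 fold change of 3.61 (2.96 scaled to T cell RNA). The 7 untested members had too few counts in both groups. Klrc1 (chr6:129666015-129678973), the inhibitory receptor NKG2A, stood at 2.29, 15.3, 11.2, 23 and 19.7 CPM in the CD4 libraries and 326, 197, 385, 547 and 293 CPM in the CD8 libraries. It was higher in every CD8 library, by 4.69 ± 0.39 on the log2 scale (edgeR adjusted p = 9.99e-07). Its partner Klrd1 (CD94) rose by 4.03 ± 0.24, the activating receptor Klrk1 (NKG2D) by 3.48 ± 0.27, Klrc2 by 5.0 ± 0.54, Klre1 by 4.92 ± 0.52 and the adhesion receptor Crtam by 3.61 ± 0.37.

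Klrg1, a receptor of terminal effector T cells that tissue Tregs also carry, was the exception, at 38.7, 52.6, 50.8, 68.3 and 41.9 CPM in the CD4 libraries and 3.84, 0.566, 15.3, 9.62 and 3.58 CPM in the CD8 libraries. It was lower in every CD8 library, with a log2 fold change of -2.87 ± 0.46 (edgeR adjusted p = 0.000271), and it was named after its values were seen. Of 9 tested NK and innate lymphoid cell markers, 3 were higher in CD8 CTRL and 2 lower. The higher ones were Eomes and Il7r, which T cells also carry, and the stem cell factor receptor Kit (1.22 ± 0.27, or 0.49 and not passing when scaled to T cell RNA), and the lower ones Il1rl1 and Areg. Among the 7 members with too few counts to test, Ncr1 had 0 counts in all 5 CD8 CTRL libraries and 19 over the 5 CD4 CTRL libraries, Klra8 and Klra4 had 0 in all 10, and Klrb1c had 8 and 7 counts. The signalling adaptors of NK cells Tyrobp (74.1 to 238 CPM in CD4 CTRL, 85.4 to 139 CPM in the CD8 libraries) and Fcer1g did not pass the test on the CPM scale in either direction. The whole NK and innate lymphoid list summed to 797 to 1339 CPM in the CD4 libraries and 850.2 to 1275 CPM in the CD8 libraries, overlapping.

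Effector and memory genes of CD8+ T cells showed the same direction. Of 21 tested members, 15 were higher in CD8 CTRL and 0 lower, with a median log2 fold change of 1.48. Scaled to T cell RNA, 11 were higher and 4 lower, against 1.06% and 47.9% of all tested genes (median 0.85). Ifng (chr10:118441046-118445892), the cytokine interferon-gamma, stood at 19.1, 3.83, 14.1, 12.2 and 20.4 CPM in the CD4 libraries and 63.2, 58, 93.7, 135 and 81.5 CPM in the CD8 libraries. Every CD8 library was above every CD4 library, with a log2 fold change of 2.71 ± 0.33 (edgeR adjusted p = 2.77e-05). Ifngas1, a long noncoding RNA next to Ifng on chromosome 10, stood at 0.255, 0, 0.468, 0 and 0 CPM in the CD4 libraries and 12.3, 11.9, 22.5, 9.62 and 22.5 CPM in the CD8 libraries. Its log2 fold change, 6.54 ± 0.66 (edgeR adjusted p = 4.59e-06), was the largest among the named genes, and 3 of the 5 CD4 libraries had no count of it. It rests on 3 counts over the CD4 group against 253 over the CD8 group, a ratio of CPM of 107 with an exact 95% interval of 36.3 to 524 for counting error. Strand use in the counting is not given in the sources used here, so reads of neighbouring or overlapping transcripts at that locus may be mixed.

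The chemokine Ccl5 (chr11:83525778-83530518), which draws T cells and myeloid cells to inflamed tissue, stood at 70.8, 150, 97.2, 128 and 174 CPM in the CD4 libraries and 997, 994, 1281, 1417 and 847 CPM in the CD8 libraries. Every CD8 library was above every CD4 library, with a log2 fold change of 3.24 ± 0.22 (edgeR adjusted p = 1.27e-07). Xcl1, which attracts cross-presenting dendritic cells, rose by 3.74 ± 0.21, from 8.4 to 17.7 CPM to 138 to 199.6 CPM. Samd3, a gene found in cytotoxic lymphocytes, stood at 0.50 to 1.64 CPM in the CD4 libraries and 38 to 54 CPM in the CD8 libraries, a log2 fold change of 5.42 ± 0.29 (edgeR adjusted p = 4.93e-09). Ly6c2, a surface protein of memory CD8+ T cells and monocytes, rose by 2.88 ± 0.14, while the macrophage and monocyte list it also belongs to had no other member higher in CD8 CTRL.

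Of the 6 tested members that did not pass, Itgae, the alpha chain of the CD103 integrin, was at 11.8 to 44.7 CPM in the CD4 libraries and 7.87 to 23.8 CPM in the CD8 libraries (adjusted p = 0.0833), and the others were Ccl3, Ccl4, Tnf, Itga1 and Dapl1. Zfp683 (Hobit) had 0 counts in all 10 libraries.

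Further genes with the largest differences toward CD8 CTRL were Lcn4 (4.92 ± 0.55), a lipocalin, Slc16a11 (4.81 ± 0.71), a monocarboxylate transporter, Fcrl6 (4.74 ± 0.52), an Fc receptor-like protein, and Trgv2 (4.89 ± 0.50). Trgv2 encodes a variable segment of the gamma chain of the T cell receptor. Trgc2, a constant segment of the same chain, stood at 0.764, 2.48, 7.49, 2.25 and 3.79 CPM in the CD4 libraries and 29.7, 21.5, 51.8, 68.5 and 39.7 CPM in the CD8 libraries. Both were higher in every CD8 library, Trgc2 by 3.7 ± 0.44 (edgeR adjusted p = 2.18e-05). Trdc, the constant segment of the delta chain that gamma-delta T cells need, was at 23.7, 5.19, 7.73, 3.0 and 2.52 CPM in the CD4 libraries and 7.68, 7.92, 2.4, 1.15 and 6.44 CPM in the CD8 libraries. The delta segment thus overlapped between the groups and did not pass (log2 fold change -0.62, adjusted p = 0.527).

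Of 18 genes of the T cell receptor complex and other genes shared by T cells, 14 were higher on the CPM scale in CD8 CTRL and 0 lower, with a median log2 fold change of 0.77. Cd3e, a signalling chain of the receptor, stood at 179.8, 214, 160.2, 122 and 209 CPM in the CD4 libraries and 376, 409, 439.9, 456 and 363 CPM in the CD8 libraries, a log2 fold change of 1.28 ± 0.16 (edgeR adjusted p = 3.38e-05). Cd3d rose by 1.15 ± 0.20, the kinases Lck and Zap70 by 1.03 ± 0.21 and 0.87 ± 0.19, Thy1 by 0.97 ± 0.20 and the receptor beta constant segment Trbc1 by 0.90 ± 0.22. None of these 6 passed when scaled to T cell RNA, a scale that 5 of them helped to set, and the median of the list was then 0.04. Without library 14 as well, Cd3e (0.59, adjusted p = 0.000825) and Cd3d (0.41, adjusted p = 0.0113) passed on that scale. The count of 14 fell to 9 without CD4 library 13 and to 9 without CD8 library 22.

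The inhibitory receptors that mark chronically stimulated T cells were split. Of 21 tested genes of inhibitory receptors and exhaustion, 8 were higher in CD8 CTRL and 3 lower (median log2 fold change 0.43). Scaled to T cell RNA the median was -0.35, with 3 higher and 7 lower, against 1.06% and 47.9% of all tested genes. Without library 14 that scaling gave 7 higher and 7 lower, against 2.18% and 43.9%. Pdcd1 (chr1:94038305-94052553), which encodes PD-1, stood at 14.8, 26.6, 29.7, 31.8 and 56.8 CPM in the CD4 libraries and 131, 73.3, 169, 251 and 72.2 CPM in the CD8 libraries. Libraries 22 and 25 were the low ones of the CD8 group and library 15 the high one of the CD4 group, and the groups did not overlap. The log2 fold change was 2.2 ± 0.35 (edgeR adjusted p = 0.000267), or 1.29 scaled to T cell RNA (adjusted p = 0.0173).

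Cd274 (chr19:29367455-29388095), which encodes the ligand PD-L1, stood at 137, 219, 191, 169 and 179.7 CPM in the CD4 libraries and 135, 103, 98.2, 118 and 155 CPM in the CD8 libraries. The groups overlapped, and the log2 fold change of -0.47 ± 0.16 passed narrowly (edgeR adjusted p = 0.049). It did not pass when any of libraries 12, 13, 15, 21, 22, 23 or 24 was left out (adjusted p from 0.0548 to 0.118). The 4T1 CTRL libraries held 309 ± 76 CPM of it (SD, n = 5).

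Of the other inhibitory genes, Havcr2 (TIM-3) rose by 1.74 ± 0.34, Cd160 by 3.21 ± 0.47, the nuclear receptor Nr4a2 by 1.42 ± 0.13 and the G protein regulator Rgs16 by 2.04 ± 0.21. Under the T cell scaling Havcr2 (0.83), Nr4a2 (0.47) and Lag3 (1.34) did not pass, but without library 14 all 3 did, at 1.23, 0.88 and 1.48 (adjusted p = 0.012, 8.19e-05 and 0.0442). Lag3, named after its values were seen, rose by 2.15 ± 0.53 from low levels of 1.01 to 3.82 CPM in CD4 CTRL to 4.81 to 20 CPM in the CD8 libraries. Ctla4, also named afterwards, went the other way, at 428, 362, 518, 204 and 476 CPM in the CD4 libraries and 224, 176, 189, 245 and 147 CPM in the CD8 libraries.

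Ctla4 overlapped only through CD4 library 14, and its log2 fold change was -0.95 ± 0.22 (edgeR adjusted p = 0.00535) with library 14 and -1.13 without it (adjusted p = 1.26e-05). Tox2, a factor of follicular helper and exhausted T cells, stood at 15, 15.1, 17.6, 8.25 and 41.6 CPM in the CD4 libraries and 3.33, 0.283, 1.2, 0 and 0.358 CPM in the CD8 libraries. It was lower in every CD8 library, with a log2 fold change of -4.0 ± 0.66 (edgeR adjusted p = 0.00038). Its relative Tox did not pass (log2 fold change 0.69, adjusted p = 0.0766).

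Genes of regulatory T cells were lower in CD8 CTRL as a block. Of 27 tested members, 21 were lower and 0 higher, against 13.2% and 10.1% of all tested genes (median log2 fold change -1.6). Scaled to T cell RNA 26 were lower, against 47.9% of all tested genes. Foxp3 (chrX:7573644-7595245), the factor that defines Tregs, stood at 83.3, 109, 104, 68.8 and 110.5 CPM in the CD4 libraries and 2.81, 8.2, 0.299, 1.15 and 2.15 CPM in the CD8 libraries. All CD4 libraries were well above all CD8 libraries, with a log2 fold change of -4.88 ± 0.43 (edgeR adjusted p = 1.44e-06). Tnfrsf4 (OX40), a costimulatory receptor abundant on tumour Tregs, stood at 177, 212, 232, 154 and 285 CPM in the CD4 libraries and 39.1, 28.9, 46.7, 40.4 and 33.3 CPM in the CD8 libraries.

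Tnfrsf4 was lower in every CD8 library, with a log2 fold change of -2.42 ± 0.19 (edgeR adjusted p = 5.49e-07). Il1rl1 (chr1:40429570-40465415), the interleukin-33 receptor ST2 carried by tissue Tregs and type 2 helper cells, stood at 76.7, 78.5, 100, 65.8 and 174 CPM in the CD4 libraries and 4.61, 5.09, 1.5, 2.69 and 6.44 CPM in the CD8 libraries. Library 15 was the highest of the CD4 group, and the log2 fold change was -4.51 ± 0.35 (edgeR adjusted p = 5.49e-07). Ikzf2 (Helios), Il2ra (CD25), and Areg, the tissue repair factor amphiregulin, were lower, with log2 fold changes of -1.61 ± 0.15, -1.6 ± 0.20 and -2.07 ± 0.27, each without overlap between the groups.

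Itgb8, an integrin that activates TGF-beta, and Gpr83, a receptor found on Tregs, were among the 12 genes with the largest differences toward CD4 CTRL. Itgb8 stood at 5.25 to 18.5 CPM in the CD4 libraries and 0 to 1.79 CPM in the CD8 libraries, and Gpr83 at 6.25 to 19.7 CPM and 0 to 3.07 CPM. Both were near the detection limit in CD8 CTRL, and their log2 fold changes were -4.12 ± 0.64 and -4.0 ± 0.78. The 6 tested members that did not pass were Ikzf4, Tnfrsf9, Tnfrsf1b, Il10, Il10ra and Batf. The 4T1 libraries held little Foxp3 (0.179 CPM), Itgb8 (1.08 CPM) or Gpr83 (0.181 CPM), but 67.7 CPM of Areg, 38.3 CPM of Ikzf2 and 23.2 CPM of Il1rl1. For 10 of the 21 lower members the 4T1 mean was above the CD8 CTRL mean, and for 4 above the CD4 CTRL mean.

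Helper genes showed the same direction with some gaps. Of 30 listed helper subset genes 18 were tested, 11 were lower in CD8 CTRL and 1, Stat4, was higher (1.02 ± 0.21, or 0.24 and not passing when scaled to T cell RNA), with a median log2 fold change of -1.17. Cd40lg (chrX:57212143-57224042), the ligand by which CD4+ T cells license dendritic cells and B cells, stood at 60.9, 68.8, 51.5, 15.8 and 59.5 CPM in the CD4 libraries and 4.09, 0.283, 2.1, 1.15 and 2.15 CPM in the CD8 libraries. Library 14 was the lowest CD4 library, as for Cd4, and the log2 fold change was -4.58 ± 0.49 (edgeR adjusted p = 7.56e-06). The type 2 cytokine Il4 was at 3.31, 6.99, 8.9, 2.5 and 23 CPM in CD4 CTRL, 183 counts in all, and had 0 counts in all 5 CD8 CTRL libraries. Against a floor of 3 counts over the CD8 group, Il4 was at least 47.9-fold lower in CD8 CTRL. Without library 15, which held the most Il4, that bound was 29.8-fold. Il13, with 59 counts in CD4 CTRL and 0 in CD8 CTRL, was at least 15.4-fold lower.

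Maf, a factor of several helper subsets, fell from 529 to 817 CPM in CD4 CTRL to 124 to 228 CPM in the CD8 libraries, a log2 fold change of -1.74 ± 0.17 (edgeR adjusted p = 3.22e-06). Ahr, the aryl hydrocarbon receptor, was lower, with a log2 fold change of -1.53 ± 0.25. The chemokine receptors Ccr4 and Ccr6, which guide type 2 and type 17 helper cells and Tregs, were lower, with log2 fold changes of -3.45 ± 0.67 and -3.5 ± 0.49. Bcl6, Cxcr5, Il21, Il6ra, Tnfsf11 and Il4ra did not pass the test. The 4T1 CTRL libraries held means of 409 CPM of Maf and 31.7 CPM of Ccr6. For 5 of the 11 lower helper members the 4T1 mean was above the CD8 CTRL mean, and for 2 above the CD4 CTRL mean. The part of other cells in these differences was not tested.

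Naive and circulating T cell genes gave a mixed picture. Of 20 tested members, 5 were higher in CD8 CTRL (among them Il7r, Klf2, Bcl2 and Txk) and 2 lower (Id3 and Igfbp4). The median log2 fold change of 0.63 turned to -0.15 when scaled to T cell RNA. On that scale 0 were higher and 4 lower with edgeR, against 1.06% and 47.9% of all tested genes, or 1 and 6 without library 14. Scaled that way, the differences were -0.17 for Il7r, -0.12 for Klf2, 0.21 for Bcl2 and 0.68 for Txk, and Txk passed without library 14 (0.49, adjusted p = 0.0291). Library 14 was low for several of them: Lef1 stood at 326, 292, 202, 24.5 and 183 CPM across libraries 11 to 15, and Ccr7 at 655, 707, 630.2, 81.8 and 563 CPM. Neither passed, with log2 fold changes of 0.70 and 0.42 (adjusted p = 0.282 and 0.479). Igfbp4 stood at 795, 1103, 934, 1326 and 725 CPM in CD4 CTRL, 306, 254, 189, 182 and 257 CPM in the CD8 libraries and a mean of 966 CPM in the 4T1 libraries, a log2 fold change of -1.94 ± 0.18. That gene encodes a binding protein of insulin-like growth factors, and a T cell source and a source in other tumour cells cannot be told apart here.

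Costimulatory genes divided by member, with 6 of 18 higher and 6 lower in CD8 CTRL. Higher were Cd226 (1.8 ± 0.25) and Cd96 (1.19 ± 0.28, or 0.47 and not passing when scaled to T cell RNA), a pair of receptors for nectin ligands, Cd28, Cd27, Tnfsf14 and Tnfsf4 (2.92 ± 0.54), the OX40 ligand. Lower beside Cd40lg and Tnfrsf4 were Icos, Tnfrsf18, Tnfrsf25 and Tnfsf8 (-1.28 ± 0.31). OX40 and its ligand thus went in opposite directions, with Tnfsf4 at 0, 2.26, 1.64, 2.0 and 1.51 CPM in the CD4 libraries and 11.8, 13, 10.2, 11.2 and 7.87 CPM in the CD8 libraries. Scaled to T cell RNA, 2 of the 18 were higher and 10 lower, against 1.06% and 47.9% of all tested genes. Cd28 (0.04), Cd27 (-0.09) and Tnfsf14 (0.29) did not pass on that scale.

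Among 24 cytokine receptors, 7 were higher in CD8 CTRL and 3 lower (median 0.30, or -0.61 scaled to T cell RNA). The interleukin-2 receptor showed opposite directions in its subunits. Il2rb, the beta chain shared with the interleukin-15 receptor, stood at 318, 388, 422, 258 and 490.3 CPM in the CD4 libraries and 991, 867, 1041, 1120 and 954 CPM in the CD8 libraries, a log2 fold change of 1.48 ± 0.17 (edgeR adjusted p = 1.31e-05). The alpha chain Il2ra stood at 91.2, 102, 107, 106 and 179.7 CPM in the CD4 libraries and 28.9, 31.4, 35.6, 52.3 and 35.4 CPM in the CD8 libraries, and the common chain Il2rg did not pass. Il12rb2 and Il18rap, receptor chains through which interleukin-12 and interleukin-18 induce interferon-gamma, rose by 2.82 ± 0.37 and 1.73 ± 0.22. Il1r2, a decoy receptor of interleukin-1, was lower, with a log2 fold change of -1.64 ± 0.19. The 4T1 CTRL libraries held a mean of 179 CPM of it, above the means of CD4 CTRL (79.1 CPM) and CD8 CTRL (24.1 CPM). The part of other cells in this difference was not tested. Ifngr1, the ligand-binding interferon-gamma receptor subunit, was higher by 0.87 ± 0.15 on the CPM scale and at -0.01 scaled to T cell RNA.

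Of 20 tested chemokine receptor and trafficking genes, 7 were higher in CD8 CTRL and 3 lower (median 0.46, or -0.54 scaled to T cell RNA). Cxcr6, a receptor of tumour-resident effector cells, stood at 34.6, 36.1, 34, 44.5 and 66.1 CPM in the CD4 libraries and 179.9, 144, 192, 312 and 144 CPM in the CD8 libraries. It was higher in every CD8 library, most in library 24, by 2.25 ± 0.23 (edgeR adjusted p = 4.48e-06). Cxcr3, a receptor of interferon-induced chemokines, and the integrin Itga4 were higher by 1.0 ± 0.22 and 0.90 ± 0.16 on the CPM scale, and both reversed when scaled to T cell RNA (-0.02 and -0.08), where neither passed. Without library 14 that scaling gave 0.53 for Cxcr3, which did not pass (adjusted p = 0.0623), and 0.42 for Itga4, which did (adjusted p = 0.0456). On the CPM scale without library 14, 5 members rather than 3 were lower.

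**Figure D4:**
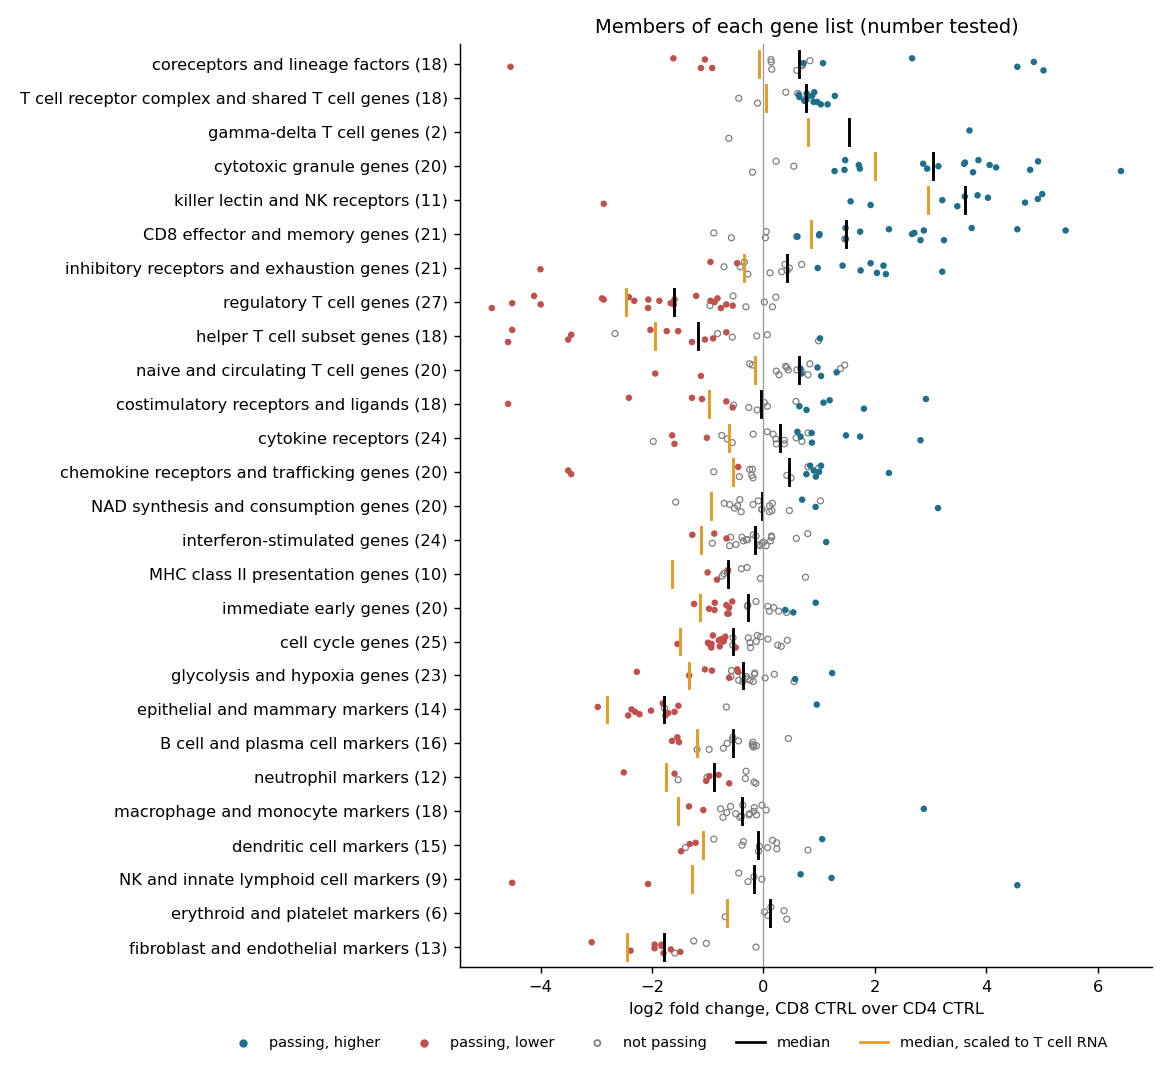
Log2 fold change of CD8 CTRL over CD4 CTRL (x axis) for each tested member of 27 gene lists (y axis, number tested in brackets), filled where it passed the test. Black bars are list medians on the CPM scale and orange bars the medians scaled to T cell RNA, which lie left of the black bar for every list.

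Nampt (chr12:32819545-32853349), the rate-limiting enzyme of the NAD salvage pathway and the target of the antibody used in the rest of the series, stood at 101, 119, 117, 174 and 122 CPM in the CD4 libraries and 90.6, 70.7, 94.3, 95.4 and 99.4 CPM in the CD8 libraries. Each CD8 library was below each CD4 library, with library 14 highest, but the log2 fold change of -0.40 ± 0.15 did not pass edgeR's test (adjusted p = 0.0585). It passed with DESeq2 (adjusted p = 0.0414), without library 11 (0.0387), without library 25 (0.0491) and scaled to T cell RNA (-1.41, adjusted p = 0.00518). Of 20 tested genes of NAD synthesis and consumption, 3 were higher (15%, against 10.1% of all tested genes) and 0 lower, with a median of -0.03. These were the deacylases Sirt1 (0.94 ± 0.15) and Sirt7 (0.69 ± 0.13), whose difference scaled to T cell RNA was 0.03 and -0.19, and Nmnat2 (3.13 ± 0.69), an adenylyltransferase at 0.226 to 1.87 CPM in the CD4 libraries and 3.46 to 15 CPM in the CD8 libraries.

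Cell cycle genes were lower in CD8 CTRL, 13 of 25 against a background of 13.2%, with 0 higher and a median log2 fold change of -0.55. Ube2c, a ubiquitin-conjugating enzyme of mitosis, stood at 88.1, 94.3, 106, 84.8 and 68.4 CPM in the CD4 libraries and 27.1, 23.2, 27.9, 33.5 and 32.2 CPM in the CD8 libraries, a log2 fold change of -1.54 ± 0.17 (edgeR adjusted p = 9.24e-06). The mitotic genes Tpx2, Plk1 and Cdk1 were lower, with log2 fold changes of -0.98 ± 0.16, -1.0 ± 0.23 and -0.93 ± 0.21, and Top2a with one of -0.76 ± 0.15. Replication genes such as Mcm2, Mcm3, Pcna and Tyms did not pass. The 4T1 CTRL libraries held 68.5 CPM of Ube2c and 357 CPM of Top2a, levels between the means of the CD4 and CD8 groups.

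Of 23 genes of glycolysis and hypoxia, 7 were lower in CD8 CTRL and 2 higher (median -0.37). Egln3, an oxygen-sensing hydroxylase induced by hypoxia, stood at 80.2, 84.2, 84.8, 148 and 89.3 CPM in the CD4 libraries and 14.1, 10.8, 24.9, 16.5 and 28.3 CPM in the CD8 libraries, a log2 fold change of -2.27 ± 0.25 (edgeR adjusted p = 9.78e-06). Ndrg1, Hk2, Pfkl and Pkm were lower, with log2 fold changes of -1.33 ± 0.17, -1.05 ± 0.18, -0.92 ± 0.22 and -0.62 ± 0.15. The 4T1 libraries held means of 115, 600.4, 626 and 898 CPM of Egln3, Ndrg1, Hk2 and Pkm. For each of the 7 lower members the 4T1 mean was above the means of both CD4 CTRL and CD8 CTRL. Slc2a3 (GLUT3), the glucose transporter of lymphocytes, was higher by 1.23 ± 0.17 (edgeR adjusted p = 7.44e-05), or 0.24 scaled to T cell RNA (adjusted p = 0.568) and 0.77 on that scale without library 14 (adjusted p = 0.00228). The part of tumour-cell RNA in these differences was not tested.

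Immediate early genes, which dissociation and receptor signals both induce, were lower in 9 of 20 cases and higher in 3 (median -0.28). No higher call was left in 6 of 10 fits that left out a library, and only 1 or 2 in the others. The 3 higher genes were Fosl2 (0.39 ± 0.13), Ier2 (0.54 ± 0.18) and the activation marker Cd69 (0.94 ± 0.30). Scaled to T cell RNA they were at -0.46, -0.30 and 0.27, and none of the 3 passed. Ier3, Atf3, Klf4 and Egr1 were lower, with log2 fold changes of -1.24 ± 0.23, -0.98 ± 0.19, -0.88 ± 0.17 and -0.87 ± 0.17. For each of the 9 lower members the 4T1 mean was above the CD4 CTRL mean. Of 24 interferon-stimulated genes 3 were lower (12.5%, against 13.2% of all tested genes), namely Gbp2 (-0.88 ± 0.15), Oasl2 (-1.28 ± 0.30) and Gbp3 (-0.66 ± 0.17), and 1 was higher, Ifit3 (1.13 ± 0.34, or 0.22 scaled to T cell RNA). Without library 14, 6 of them were lower and 2 higher, without library 23 5 were lower and without library 25 6 were. Leaving out library 12, 13, 15 or 23 left 0 higher, so the call of Ifit3 was lost there. Most of the list, 20 of 24, did not pass, while Ifng itself was higher in CD8 CTRL. The 4T1 mean was above the CD8 CTRL mean for all 3 lower interferon-stimulated genes and above the CD4 CTRL mean for 2.

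Markers of other cells were examined for every list. Of 14 tested epithelial and mammary markers 11 were lower in CD8 CTRL and 1 higher (median -1.79; the higher one was Cdh1, whose groups overlapped and whose 0.96 became 0.07, not passing, when scaled to T cell RNA), and 7 were lower without CD4 library 13. Krt18, a keratin of luminal epithelium, stood at 147, 104, 155, 176 and 119.9 CPM in the CD4 libraries and 15.1, 7.64, 12.6, 11.2 and 37.9 CPM in the CD8 libraries, a log2 fold change of -2.97 ± 0.33 (edgeR adjusted p = 1.02e-05). The 4T1 CTRL libraries held 146 ± 74 CPM of Krt18 (SD, n = 5), about the level of the CD4 isolates. Krt8 was lower, with a log2 fold change of -2.43 ± 0.26, with 77.7 to 104 CPM in CD4 CTRL, 8.2 to 24.3 CPM in the CD8 libraries and 89.7 CPM in the 4T1 libraries.

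Of 13 tested fibroblast and endothelial markers 9 were lower and 0 higher (median -1.79), and 5 were lower without CD4 library 11, which had their highest sum. Their sum was 7193, 1546, 2082, 1179 and 2763 CPM in the CD4 libraries and 849, 476, 1144, 857 and 1145 CPM in CD8 CTRL. Pdgfra, a receptor of fibroblasts, had a log2 fold change of -2.38 ± 0.31 and the matrix protein Sparc one of -1.95 ± 0.32. Among neutrophil markers 6 of 12 were lower, led by Lcn2 (-2.51 ± 0.32), among B cell and plasma cell markers 3 of 16 (5 without library 14), and among dendritic cell markers 3 of 15 were lower and 1, Irf8, higher. Irf8, also an effector gene of CD8+ T cells, rose by 1.05 ± 0.15, or 0.13 scaled to T cell RNA, where it passed without library 14 (0.48, adjusted p = 0.0142) but not with it. Of 18 macrophage and monocyte markers 2 were lower (11.1%, also near the share of all genes), Spp1 (-1.08 ± 0.19) and Lyve1 (-1.34 ± 0.39). Of 6 erythroid and platelet markers 0 passed with edgeR or DESeq2. The platelet chemokine Pf4 was the 1 of them with an unadjusted p under 0.05 (adjusted p = 0.125).

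MHC class II genes, which antigen-presenting cells characteristically carry, were lower in 3 of 10 cases and higher in 0. For all 3 lower members the 4T1 mean was above the CD4 CTRL mean. The source of this RNA was not tested. H2-Aa stood at 532, 1506, 957, 1747 and 1165 CPM in CD4 CTRL, highest in library 14, and at 663, 487, 506, 667 and 776 CPM in the CD8 libraries, a log2 fold change of -0.83 ± 0.24. Ctsh was lower, at -0.63 ± 0.14, and H2-DMb1, at -1.0 ± 0.33, the latter not passing without library 14 (adjusted p = 0.0857). Without library 11, and without library 25, 5 of the 10 were lower. Leaving out library 12, 14, 21, 22 or 23 gave 2 lower.

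Several of the 12 largest differences toward CD4 CTRL concern genes that stand on none of the T cell lists and that the 4T1 libraries also contained. Rerg, an oestrogen-responsive small GTPase, stood at 7.38, 12.2, 10.1, 22.5 and 8.58 CPM in the CD4 libraries and 0, 0, 0.898, 0 and 1.07 CPM in the CD8 libraries, with 12.6 CPM in the 4T1 libraries. Irx2, a homeobox factor of mammary epithelium, stood at 19.6, 8.57, 23.9, 32.8 and 13.1 CPM in the CD4 libraries and 0, 0, 0.599, 1.54 and 2.15 CPM in the CD8 libraries, with 21.2 CPM in the 4T1 libraries. Sema6a, Fbxo2 and Ccbe1 had the same layout, at means of 12.9, 11.8 and 14.6 CPM in the CD4 libraries, 0.43, 0.608 and 0.803 CPM in the CD8 libraries and 13.9, 9.73 and 16.6 CPM in the 4T1 libraries. Their log2 fold changes were -4.79 ± 0.72, -4.5 ± 0.66, -4.58 ± 0.72, -4.18 ± 0.66 and -4.1 ± 0.69. The other 7 of the 12 were Cd4, Foxp3, Cd40lg, Il1rl1, Itgb8, Tox2 and Gpr83, of which Il1rl1 had 23.2 CPM in the 4T1 libraries and Tox2, the next, 1.18 CPM.

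The same lineage contrast was made in the 10 libraries from C269-treated mice, which share no library with the control comparison. There 11797 genes were tested, 415 were higher in CD8 (3.52%) and 489 lower (4.15%). Of the 1193 genes higher in control tumours that were tested again, 1118 had the same direction (93.7%), as had 1496 of 1569 lower genes (95.3%). The share of all tested genes with the same direction is not given here, so these percentages have no background beside them. The shared calls were 330 higher genes, 27.1% of the control list and 79.5% of the C269 list, and 408 lower genes, 25.4% and 83.4%. Counts in C269 moved widely with single libraries, from 208 to 505 higher calls and from 262 to 728 lower calls. The higher count moved by over 1.5 times without CD4 library 16 (262), 17 (235), 18 (212) or 20 (208) or CD8 library 26 (262), and the lower count without CD4 library 17 (317), 18 (262) or 20 (299).

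The cytotoxic block was again higher, 15 of 19 tested members with a median log2 fold change of 2.62, and the Treg block lower, 15 of 27 with a median of -1.29. Cd8a differed by 4.27, Cd4 by -3.95, Foxp3 by -5.71, Gzmb by 2.62, Ifng by 2.54 and Pdcd1 by 1.57 (edgeR adjusted p = 3.62e-06, 8.64e-05, 3.55e-05, 0.00408, 0.00119 and 0.0374). Zbtb7b (-1.32, adjusted p = 0.0694), Nampt (-0.09, 0.846) and Cd274 (-0.50, 0.275) did not pass there. Epithelial markers gave 1 lower call of 15 and fibroblast and endothelial markers 0 of 13, against 11 and 9 in control tumours, and cell cycle genes 1 lower and 1 higher of 24. The medians of these lists under C269 were -0.43, -0.69 and -0.22, against -1.79, -1.79 and -0.55 in control tumours. On simulated counts the C269 fit recovered 14.9% of 2-fold changes and the control fit 49.3%. Fewer calls under C269 therefore do not show that a difference was absent there.

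Whether a lineage difference itself changed with treatment was tested as an interaction over all 20 T cell libraries. None of 13264 genes passed edgeR's test (569 had an unadjusted p under 0.05), and none passed with DESeq2 (759 at an unadjusted p under 0.05). Without the low-count filter 8 passed. On simulated counts the edgeR interaction test recovered 10.4% of 2-fold, 58.2% of 4-fold and 62.1% of 8-fold changes. The absence of calls therefore does not show that the lineage difference was the same under both treatments. Irx2, for instance, had mean levels of 21.1 CPM in CD4 C269 and 13.7 CPM in CD8 C269, and its interaction had an unadjusted p of 0.00303 and an adjusted p of 0.986. The smallest p-values belonged to Gm43328, Gm45828 and Fam149a, all with an adjusted p of 0.588, then Gm27019, Slc38a10 and Nr5a2. These are low-count genes except Slc38a10, an amino acid transporter, whose CD8 minus CD4 difference was -0.06 in control tumours and -1.0 under C269.

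**Figure D5:**
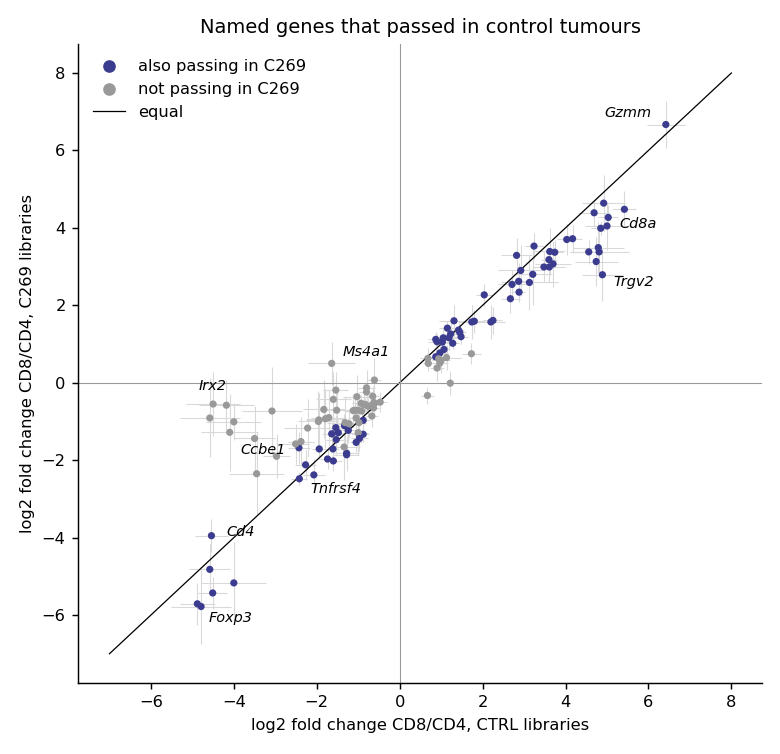
Log2 fold change of CD8 over CD4 in CTRL libraries (x axis) and in C269 libraries (y axis) for 132 named genes that passed in control tumours, with bars of 1 SE and the line of equal values. Of 133 such genes tested in both, 129 had the same direction and 77 passed again.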

How the data were processed

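RNA was sequenced on an Illumina NextSeq 500 from 30 libraries, of which 10 enter the main comparison. The values used are raw gene counts as the authors deposited them in 3 tables of 10 libraries. FastQC, featureCounts, DESeq2 and mm9 are named in the submitters' processing notes, and gene starts in the files match GRCm38 for 99.61% of 55141 IDs found, so positions are given in GRCm38. The aligner is not given in the sources used here. The authors' size-factor-normalised mean signal, log2 fold changes, Wald score and p-values, per the file headers, were not used for any value.

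The 7 rRNA features were left out. Library columns were tied to groups through the deposited count sums of each condition, which equal exactly 1 set of 5 of 252 possible sets. Replicate letters could not be tied to columns. Genes were filtered with filterByExpr and tested with edgeR 4.0.16 (R 4.3.3, TMM factors, quasi-likelihood F test, the 2 groups of a contrast in the fit, the interaction over all 20 T cell libraries), adjusted by Benjamini-Hochberg at 0.05. DESeq2 1.42.0, other factors, no filter, a 2-fold threshold, T cell scaling and leaving out each library were tried. The fits were tested on simulated data.

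Named were the lineage and PD-1 genes, the 12 largest passing changes a direction with at least 10 CPM and no overlap, up to 6 passing members a list (the 2 with the smallest p where none passed) and the 6 smallest interaction p-values. Gzma, Klrg1, Lag3, Ctla4, Il4, Il13, Stat4, Lef1, Ccr7, Tox, Trdc, Itgae, Zfp683, Cd28, Cd27, Tnfsf14, Icos, Tnfrsf18, Tnfrsf25, Cdh1, Fcer1g, Fosl2, Ier2, Cd69 and the members listed as not passing stand outside that rule and were named after their values were seen. A few list members are not reported here by name but stay in every fit, list count and sum. The comparison and the lists were chosen with earlier results of these data known.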

Additional observations from a re-analysis of the deposited data

Results flagged for a closer look

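In 34 of 294 sets of 5 library values, the highest or lowest library stood so far from the rest that its gap exceeded 0.71 of the range (Dixon's 95% value for 5). For independent, normally distributed values that limit flags about 1 set in 20. These sets share libraries and some lie near 0 CPM, so that rate may not hold here. CD4 library 14 accounted for 12 of them, library 15 for 6, library 24 for 4, libraries 11 and 25 for 3 each, libraries 21 and 23 for 2 each and libraries 13 and 22 for 1 each.

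CD4 library 14 was low for T cell genes: the 11 shared genes summed to 1243 CPM, Cd4 stood at 71.3 CPM, Thy1 at 168.5 CPM, Trbc1 at 106 CPM and the kinase Txk at 30.8 CPM. It was high for Nampt (174.5 CPM), Fbxo2 (20.8 CPM), Oasl2 (81.5 CPM), Atf3 (404.8 CPM), Plk1 (77.8 CPM), Egln3 (148.5 CPM) and Pfkl (177.3 CPM). Its macrophage marker sum was the highest of the 10 libraries, at 6738 CPM, and the part of that RNA in these values was not tested.

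CD4 library 15 was high for Il2ra (179.7 CPM), Gata3 (235.9 CPM), Tox2 (41.6 CPM), Ifngr1 (565.7 CPM) and Klre1 (3.79 CPM), and low for Sema6a (6.81 CPM). CD4 library 11 was high for the matrix genes Col1a2 (2045 CPM) and Sparc (942.9 CPM) and for Ifit3 (46.9 CPM), and CD4 library 13 was low for Lyst (42.6 CPM).

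CD8 library 24 was high for Cxcr6 (311.6 CPM), Il18rap (114.3 CPM), Il2ra (52.3 CPM) and Batf3 (9.23 CPM). CD8 library 25 was high for Krt18 (37.9 CPM), Ms4a1 (12.2 CPM) and Ccbe1 (2.86 CPM). Library 23 was low for Runx3 (533 CPM) and high for Ctsw (326.1 CPM), library 21 was high for Sema6a (1.79 CPM) and Gpr83 (3.07 CPM), and library 22 for Tnfsf8 (145.1 CPM).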

How the results depend on the processing

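Scaling to T cell RNA gave 128 higher and 5803 lower genes, and without library 14, chosen after seeing the data, 2.18% of tested genes higher and 43.9% lower against 10.1% and 13.2%. A test against a 2-fold change gave 119 and 451, and 1 fit over all 20 T cell libraries 633 and 1033. Leaving out a library gave 860 to 1102 higher and 1388 to 1677 lower genes. Under C269, DESeq2 gave 627 higher and 834 lower genes and T cell scaling 93 and 3491, and leaving out a library 208 to 505 and 262 to 728, all chosen after seeing the data. The interaction gave 8 genes without the low-count filter, which tests 28250 genes in place of 13264. The cause of these moves was not tested beyond the genes or libraries each setting tests.

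Directions reversed only under T cell scaling among the alternatives run, at log2 fold changes of -0.17 for Il7r, -0.12 for Klf2, -0.01 for Ifngr1, -0.08 for Itga4, -0.02 for Cxcr3, -0.19 for Sirt7, -0.39 for Hbb-bs and -0.34 for Gm45828. Without library 14 as well they were -0.01 for Il7r, -0.02 for Klf2, -0.26 for Hbb-bs and -0.27 for Gm45828. DESeq2 left 140 of 143 named genes on their side of the threshold and moved 3 past it. No paired analysis was possible because the library columns carry no replicate letter that ties them across groups. Low counts limit genes under about 10 CPM in both groups.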
